A study of Homo sapiens with 24 samples.

Results

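MYC, MCL1, BCL2L1, BIRC5, XIAP, BIRC2 and MDM2 encode a growth-promoting transcription factor and 6 proteins that keep cells alive, and their mRNAs are often described as sensitive to the cap-binding factor eIF4E. They were chosen by name for that reputation and not by a measured value, although earlier results of these data were known at the time. All 7 were found among the 54583 genes counted, and all 7 belonged to the 12058 genes with no count of 0 in any library, so none was lost to the filter. PANC-1, a human cell line derived from a carcinoma of the pancreatic duct, was treated for 6 h with DMSO as the vehicle control, with 40 µM CID661578, which binds the kinase MNK2, or with 5 µM cercosporamide, a known MNK2 inhibitor. Each treatment had 4 biological replicates, and from every one of the 12 plates both total cytosolic RNA and RNA associated with more than 3 ribosomes (polysome-associated RNA) were sequenced, which gave 24 libraries. All groups share this 1 line with no genetic change, both compounds are compared with the same DMSO plates, and the doses of the compounds differ. The labels give RPMI as the medium, whereas the study's methods name DMEM.

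eIF4E binds the 5′ cap of mRNAs and, with the scaffold eIF4G and the helicase eIF4A, forms the complex eIF4F that recruits the small ribosomal subunit. eIF4G carries the kinases MNK1 and MNK2, which phosphorylate eIF4E. Messages with long or structured 5′ untranslated regions (UTRs), among them many that encode growth and survival proteins, are thought to depend most on this complex, so a lower share of such an mRNA on polysomes is the usual sign of reduced eIF4E activity. The change in polysome-associated relative to total RNA is called the change in translational efficiency (TE) here. The question was whether TE fell for these mRNAs with either compound. Libraries were scaled to each other, so a TE change is relative to the other genes, and a shift shared by all genes would not show. The study reported more phosphorylated eIF4E in PANC-1 cells with both compounds, with cercosporamide there at a higher dose. With CID661578 it also reported more eIF4E bound to eIF4G, and no change in MNK2 activity in a kinase assay.

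The members fall into 4 roles. MYC (GRCh38, chromosome 8, positions 127735434 to 127742951, plus strand) encodes a transcription factor that drives growth and proliferation. MCL1 (chromosome 1, 150560895 to 150579738, minus strand) and BCL2L1 (chromosome 20, 31664452 to 31723989, minus strand) encode the guardians MCL-1 and BCL-xL, which hold back BAX and BAK1 at the mitochondrion. BIRC5 (chromosome 17, 78214186 to 78225636, plus strand) encodes survivin, which also serves in the chromosomal passenger complex of mitosis. XIAP (chromosome X, 123859712 to 123913972, plus strand) encodes an inhibitor of caspases, and BIRC2 (chromosome 11, 102347211 to 102378670, plus strand) encodes cIAP1, a ubiquitin ligase of TNF receptor signalling. MDM2 (chromosome 12, 68808177 to 68845544, plus strand) encodes a ubiquitin ligase that restrains cell death and cell cycle arrest. Counts are per gene, so the long and short isoforms of MCL1 and BCL2L1, which differ in their effect on survival, cannot be told apart.

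The annotated 5′ UTRs of the 7 messages differ widely. Among 10030 tested genes with an annotated 5′ UTR, the median length was 130 nt, the median GC content was 67.2% and 38.0% held at least 1 ATG upstream of the annotated start. BIRC2 stood at one end, with 1420 nt, longer than in 99.8% of these genes, a GC content of 36.1%, lower than in all but 0.439% of them, and 25 upstream ATGs. BCL2L1 has 381 nt with 56.2% GC and 3 upstream ATGs, MYC 363 nt with 65.3% GC and 0 upstream ATGs, MDM2 301 nt with 69.1% GC and 2, and XIAP 273 nt with 65.2% GC and 1. MCL1, with 80 nt and 61.3% GC, and BIRC5, with 64 nt and 70.3% GC, have short leaders without an upstream ATG. The group chosen for its reputation therefore holds leaders both longer and shorter than the median of all genes.

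Cap-dependent initiation begins at the first bases of the mRNA and ends at the start codon. The sequences around both are shown for BCL2L1, XIAP, BIRC2 and MDM2, in the GENCODE release 44 transcripts of GRCh38 and in the sense of the mRNA. The first set gives 15 bases around the annotated start codon, with the ATG in capitals.
BCL2L1: attataaaaATGtct
XIAP: caagagaagATGact
BIRC2: cacctactcATGcac
MDM2: aaaccccggATGgtg
BCL2L1 and XIAP have a purine 3 bases before the ATG, the position that matters most in the Kozak context, and BIRC2 and MDM2 do not. The second set gives the first 20 bases from the annotated 5′ end, where the cap sits.
BCL2L1: ctcgatccgggcgatggagg
XIAP: gaggccctgacgtggacaca
BIRC2: atcgtgcgtcagagtgagcc
MDM2: gggcgcgcaccgaggcaccg
An unbroken run of pyrimidines from the first base, the mark of messages controlled through mTOR, is 3 bases long in BCL2L1 and 0 in the other three.

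The libraries held between 9268041 and 12184749 reads on genes, except the polysome library of replicate 4 with cercosporamide, which held 1592459. The duct and epithelial genes KRT8, KRT18 and KRT19 were read in all libraries at 698 CPM (counts scaled to the normalised library size) or more and KRT7 at 3.14 to 31.8 CPM, whereas PTPRC, CD3E, ALB, INS and PRSS1, markers of leukocytes, liver and other pancreatic cells, were at a count of 0 throughout. HBB reached at most 1 read and PECAM1 at most 5. Raw counts of the members ranged from 8 for MDM2, in the shallow library, to 6950 for BIRC5. Reads were looked up for some near copies and overlapping genes, and most had few. At most 11 fell on the XIAP pseudogene XIAPP1, 0 on the retrocopy BIRC8, 4 on CASC11 beside MYC and 1 on BCL2L1-AS1. ADAMTSL4, which overlaps MCL1, reached 42. The gene CPM, which overlaps MDM2, reached 194, above the highest MDM2 count of 178. No count is given here for ABALON, a long noncoding RNA gene annotated over exons of BCL2L1. The same holds for a long noncoding RNA gene and a pseudogene that also overlap MDM2. Strand was not used in the counting, so reads from antisense neighbours cannot be separated. Reads that overlap several genes were left out, so these counts do not show how many member reads in shared exons were lost.

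BIRC5 was by far the most abundant of the 7 messages and XIAP and MDM2 the least. Per kilobase of exon, BIRC5 stood at 128 ± 19.3 CPM in total RNA of DMSO cells (SD, n = 4, as for all group values). BIRC2 followed with 27.3 ± 4.43 CPM per kilobase, BCL2L1 with 20.9 ± 9.85, MYC with 12.7 ± 8.15, MCL1 with 4.12 ± 1.40, MDM2 with 1.25 ± 0.407 and XIAP with 1.25 ± 0.575. The ranges of BIRC2 and BCL2L1 overlapped, as did those of BCL2L1 and MYC and of MDM2 and XIAP, whereas BIRC5 stood above BIRC2, MYC above MCL1 and MCL1 above both MDM2 and XIAP in every DMSO plate. In bulk RNA, fewer cells with an mRNA and less of it per cell cannot be told apart.

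**Figure D1:**
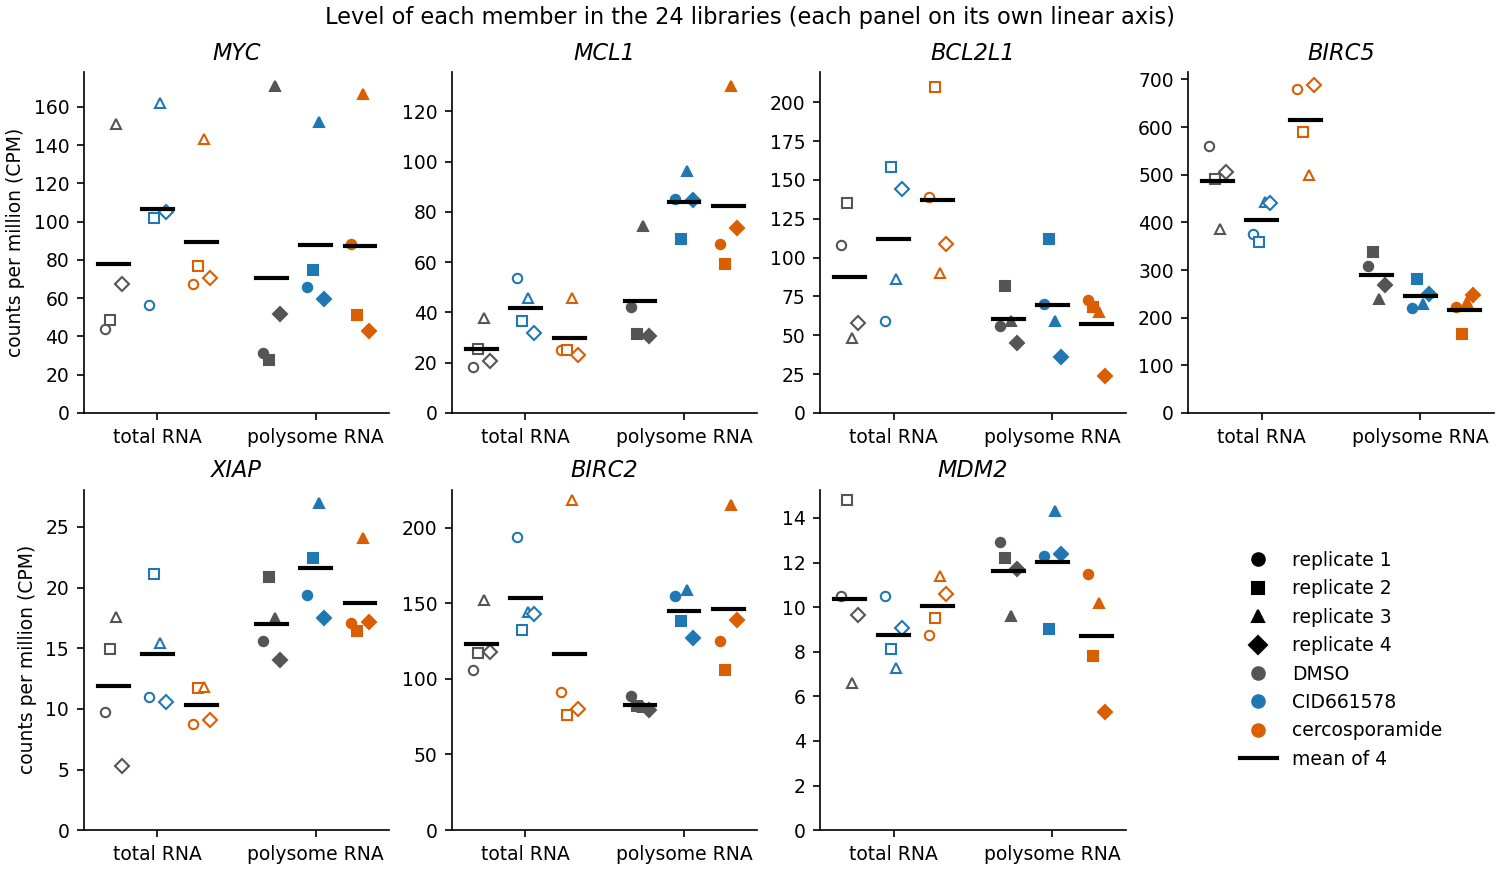
CPM of each of the 7 mRNAs in the 24 libraries, with total RNA as open and polysome-associated RNA as filled symbols, colour for treatment, shape for replicate and a bar for the mean of 4. MYC of replicate 3 stands at 143 CPM or above in every group, and BIRC5 is lower in polysome-associated than in total RNA throughout.

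MYC differed widely between replicates. In total RNA of DMSO cells it stood at 43.8, 48.7, 151 and 67.6 CPM in replicates 1 to 4, and in polysome-associated RNA at 31.1, 27.7, 171 and 51.9 CPM. With CID661578 the values were 56.7, 102, 162 and 105 CPM in total and 65.9, 74.9, 152 and 59.4 CPM in polysome-associated RNA. With cercosporamide they were 67.6, 76.7, 143 and 70.8 CPM in total and 88.3, 51.1, 167 and 43.0 CPM in polysome-associated RNA. Replicate 3 was the highest in all 6 groups, and the groups overlapped in both fractions.

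In cells given DMSO alone, 6 of the 7 mRNAs were spread unevenly between polysomes and total RNA. With DMSO, 4 were called lower in polysome-associated than in total RNA, where 29.6% of all 12058 genes were, and 2 were called higher, where 26.4% were (quasi-likelihood test of edgeR; as for all TE calls, the Benjamini-Hochberg adjusted p had to be under 0.15 and the change larger than 1.2-fold). BIRC5 was lower on polysomes by a log2 difference of -0.75 (SE 0.170, adjusted p = 0.000913), BIRC2 of -0.57 (SE 0.169, adjusted p = 0.00908), BCL2L1 of -0.44 (SE 0.226, adjusted p = 0.120) and MYC of -0.37 (SE 0.174, adjusted p = 0.0872). MCL1 was higher on polysomes with 0.76 (SE 0.182, adjusted p = 0.00160), as was XIAP with 0.63 (SE 0.229, adjusted p = 0.0283). MDM2, at 0.21 (SE 0.244, adjusted p = 0.511), was not called. When each fraction was scaled on its own, the median of all genes moved up by 0.274 on the log2 scale, and MYC (-0.10), BCL2L1 (-0.16) and BIRC2 (-0.29) were no longer called. Without replicate 1 neither BCL2L1 (-0.27, adjusted p = 0.367) nor MYC (-0.34, adjusted p = 0.190) was called, nor were they without replicate 2 (-0.34, adjusted p = 0.347, and -0.22, adjusted p = 0.434), and XIAP was not called without replicate 4 (0.39, adjusted p = 0.246).

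With CID661578, the TE of none of the 7 mRNAs was called lower or higher. The share of all genes called was 0.199% lower and 0.00829% higher (2.06% and 0.813% without replicate 1). The 0 of 7 is therefore close to the share of all genes. From these libraries the study, with a different model (anota2seq), reported far more mRNAs with changed TE, shared by both compounds, than this fit called. At an unadjusted p below 0.05 in either direction there were 0 of the 7 and 1069 of all 12058 genes. DESeq2 and the other alternatives also called 0 of 7. The log2 TE changes ran from -0.25 for BCL2L1 to 0.49 for BIRC2 with a median of 0.09, beside a median of 0.03 over all genes, and 2 were below 0.

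MYC on polysomes relative to total RNA stood at 0.710, 0.569, 1.13 and 0.769 in the DMSO plates of replicates 1 to 4 and at 1.16, 0.732, 0.942 and 0.568 with CID661578. It was higher than in the DMSO plate of the same number in 2 replicates and lower in 2, and the TE change was 0.09 (95% interval -0.42 to 0.59, adjusted p = 0.931). MCL1 had ratios of 2.29, 1.23, 1.96 and 1.47 with DMSO and of 1.59, 1.89, 2.11 and 2.66 with CID661578, with a TE change of 0.26 (-0.26 to 0.78, adjusted p = 0.767). BCL2L1 spread most, from 0.516, 0.606, 1.23 and 0.775 with DMSO to 1.19, 0.710, 0.687 and 0.252 with CID661578. Its TE change of -0.25 (-0.91 to 0.40, adjusted p = 0.820) hid a rise of the ratio in replicates 1 and 2 and a fall in replicates 3 and 4.

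None of the 3 inhibitor of apoptosis genes was called with CID661578. BIRC5 had ratios of 0.551, 0.685, 0.621 and 0.531 with DMSO and 0.588, 0.783, 0.516 and 0.564 with CID661578, and its TE change of 0.03 (-0.47 to 0.52, adjusted p = 0.980) was close to 0. XIAP had ratios of 1.58, 1.40, 0.997 and 2.59 with DMSO and 1.75, 1.06, 1.75 and 1.64 with CID661578 (TE change -0.02, -0.67 to 0.63, adjusted p = 0.990). BIRC2 came nearest to a call, with ratios of 0.833, 0.702, 0.533 and 0.671 with DMSO and 0.798, 1.05, 1.10 and 0.886 with CID661578. It was higher in 3 of 4 replicates, and its TE change of 0.49 (-0.0020 to 0.98) had an unadjusted p of 0.0508 and an adjusted p of 0.565. MDM2 had ratios of 1.23, 0.826, 1.45 and 1.21 with DMSO and 1.17, 1.11, 1.95 and 1.36 with CID661578 (TE change 0.24, -0.47 to 0.96, adjusted p = 0.848). For all 7 the intervals hold changes in either direction, so they set limits and do not show that the ratios were the same. The limit on a fall was a log2 change of -0.42 for MYC and of -0.91 for BCL2L1.

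**Figure D2:**
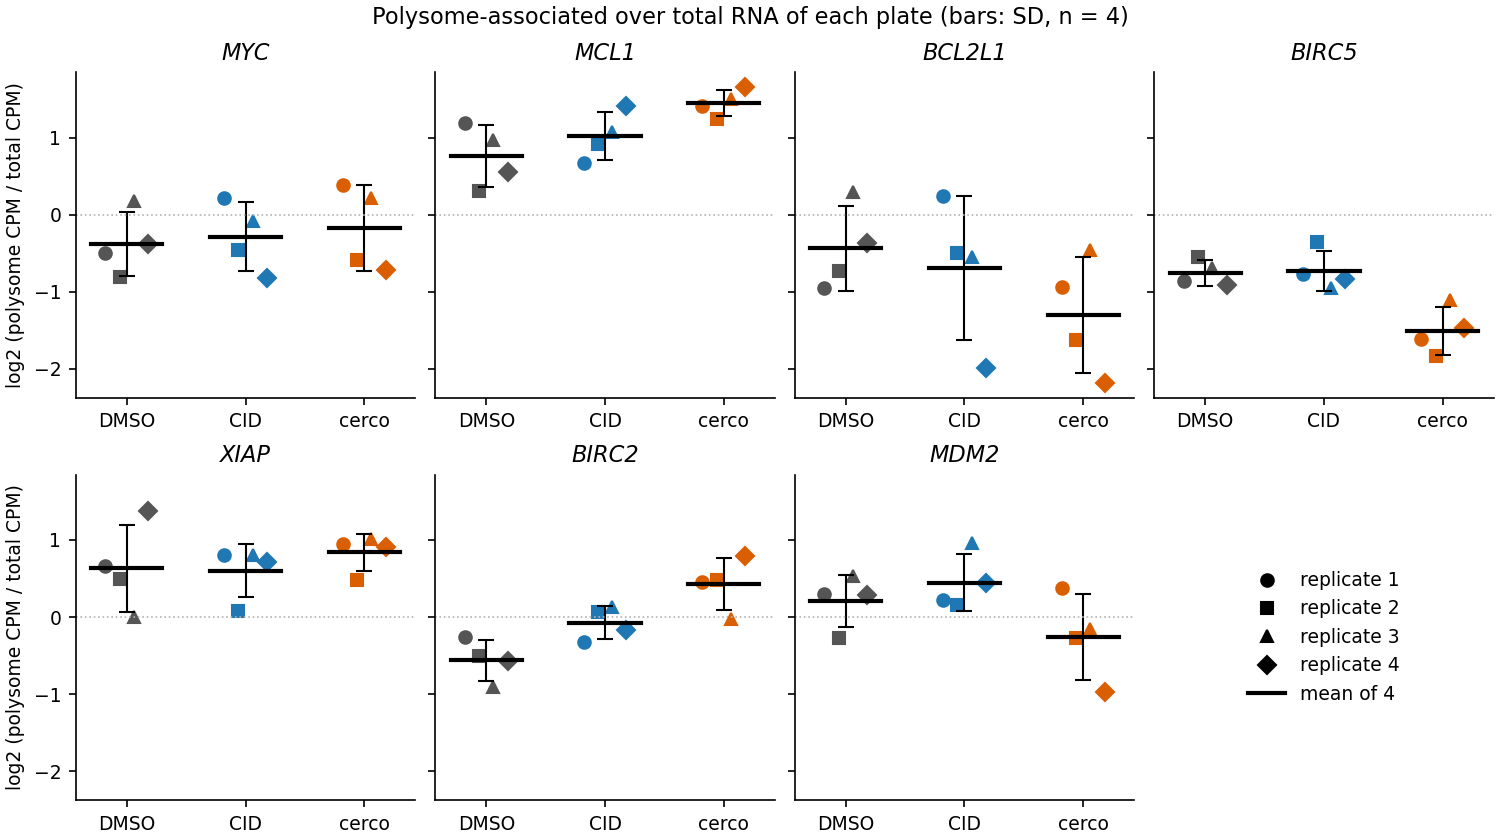
The log2 ratio of polysome-associated to total CPM for each plate, with 1 panel per mRNA, shape for replicate and the mean ± SD of 4 plates. With cercosporamide the BIRC5 plates lie below, and the MCL1 and BIRC2 plates above, all DMSO plates, while the other panels overlap.

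With cercosporamide 4 of the 7 mRNAs changed, in both directions. BCL2L1 and BIRC5 were called lower, 2 of 7 beside 12.6% of all genes, and MCL1 and BIRC2 were called higher, 2 of 7 beside 15.8% of all genes. MYC, XIAP and MDM2 were not called. The median TE change of the 7 was 0.21 and the median of all genes was -0.0005. For BIRC5 all cercosporamide ratios lay below all DMSO ratios, as for 7.96% of all genes, and for MCL1 and BIRC2 they lay above, as for 11.0%. With CID661578 no member showed either pattern, which 1.72% of all genes showed below DMSO and 2.71% above.

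MYC had cercosporamide ratios of 1.31, 0.667, 1.17 and 0.609, above the DMSO plate of the same number in 3 of 4 replicates. Its TE change of 0.21 (SE 0.247, 95% interval -0.30 to 0.72, adjusted p = 0.618) was not called, and without replicate 1 it was -0.017.

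MCL1 was found on polysomes in every treatment, and more so with cercosporamide. In polysome-associated RNA it stood at 42.3, 31.5, 74.5 and 30.5 CPM with DMSO and at 67.2, 59.1, 130 and 73.5 CPM with cercosporamide. In total RNA the values were 18.4, 25.5, 37.9 and 20.7 CPM with DMSO and 25.2, 24.9, 45.9 and 23.2 CPM with cercosporamide. The ratio of 2.65, 2.37, 2.83 and 3.15 with cercosporamide was above the DMSO plate of the same number in 4 of 4 replicates, and the TE of MCL1 rose by a log2 change of 0.69 (SE 0.257, adjusted p = 0.0659). It was no longer called without replicate 2 (0.61, adjusted p = 0.264) or without replicate 4 (0.56, adjusted p = 0.219), nor with no filter on low counts (0.63, adjusted p = 0.240).

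BCL2L1 moved the other way, and its total RNA and polysome-associated RNA parted. In total RNA it stood at 108, 135, 48.1 and 58.2 CPM with DMSO and at 139, 210, 89.9 and 109 CPM with cercosporamide, higher in each replicate although the groups overlapped. In polysome-associated RNA it stood at 55.8, 81.9, 59.2 and 45.1 CPM with DMSO and at 73.0, 67.9, 65.2 and 23.8 CPM with cercosporamide, and the last value came from 36 reads in the shallow library. The ratios of 0.524, 0.325, 0.727 and 0.220 were below the DMSO plate of the same number in 3 of 4 replicates. The TE of BCL2L1 fell by a log2 change of -0.85 (SE 0.322, adjusted p = 0.0724). The call was lost without the plate of cercosporamide replicate 4 (-0.77, adjusted p = 0.166), without replicate 2 (-0.83, adjusted p = 0.218) and without replicate 4 (-0.55, adjusted p = 0.278). In an analysis of partial variance, which adjusts polysome-associated for total RNA by regression rather than by their ratio, the change was -0.06 (adjusted p = 0.923).

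BIRC5 fell in every plate. With DMSO it stood at 561, 492, 386 and 506 CPM in total RNA and at 309, 337, 240 and 268 CPM in polysome-associated RNA. With cercosporamide it stood at 679, 590, 499 and 689 CPM in total RNA, where each plate was above the DMSO plate of its number, and at 222, 165, 233 and 248 CPM in polysome-associated RNA, where each was below. The ratio fell to 0.327, 0.280, 0.467 and 0.361, lower in 4 of 4 replicates, and the TE change was -0.75 (SE 0.240, adjusted p = 0.0331). Without replicate 2, which had the lowest ratio, the change was -0.57 (adjusted p = 0.240), and by the analysis of partial variance it was -0.50 (adjusted p = 0.314).

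BIRC2 showed the largest rise of the 7. In total RNA it stood at 106, 117, 152 and 118 CPM with DMSO and at 91.1, 75.8, 218 and 80.2 CPM with cercosporamide, lower in all replicates but replicate 3. In polysome-associated RNA it stood at 88.5, 81.9, 81.1 and 79.4 CPM with DMSO and at 125, 106, 215 and 139 CPM with cercosporamide. The ratios of 1.38, 1.40, 0.985 and 1.73 were higher in 4 of 4 replicates, and TE rose by a log2 change of 0.99 (SE 0.240, adjusted p = 0.00701). This call held with each replicate left out in turn (0.87 to 1.08). It did not hold once the trend of each library on transcript GC content was removed (0.25, adjusted p = 0.524).

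XIAP had cercosporamide ratios of 1.93, 1.39, 2.02 and 1.87 and a TE change of 0.23 (SE 0.328, 95% interval -0.45 to 0.91, adjusted p = 0.683). Its total counts of 60 to 203 in DMSO libraries limit the precision. MDM2 had ratios of 1.30, 0.827, 0.897 and 0.508 and a TE change of -0.41 (SE 0.358, 95% interval -1.15 to 0.33, adjusted p = 0.474), and the lowest ratio rests on 8 reads of the shallow library.

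**Figure D3:**
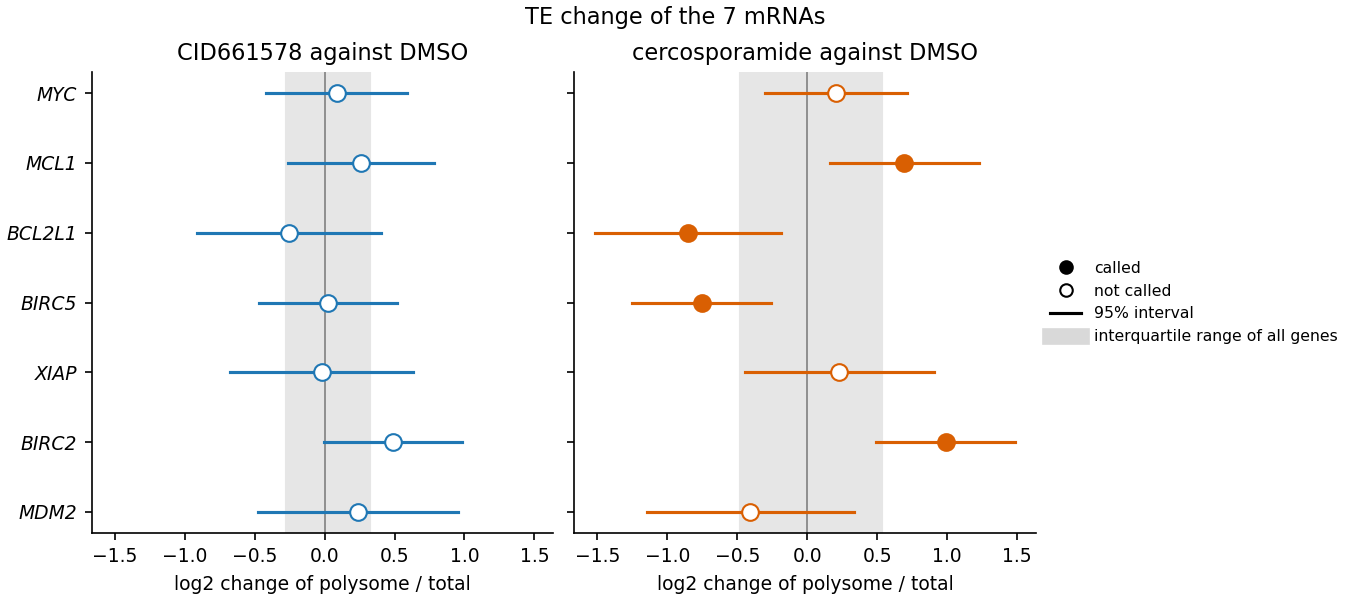
The log2 TE change of each mRNA with CID661578 and with cercosporamide against DMSO, with 95% intervals. Filled points passed the call, the grey band is the interquartile range of all 12058 genes, and the 4 called mRNAs with cercosporamide lie outside the band, 2 on each side.

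Because both compounds were set against the same DMSO plates, the compounds were also compared directly in the same fit. BIRC5 was the only member called, with a TE change that was higher by 0.78 on the log2 scale with CID661578 than with cercosporamide (SE 0.240, 95% interval 0.28 to 1.28, adjusted p = 0.0532). Of all genes, 7.93% were called higher and 7.57% lower in this comparison. The BIRC5 difference was not called without replicate 1 (0.76, adjusted p = 0.185) or without replicate 2 (0.54, adjusted p = 0.380). BIRC2 had a difference of -0.50 (-0.99 to -0.0043, adjusted p = 0.223), which was called without replicate 3 (-0.73, adjusted p = 0.122). MCL1 had -0.43 (-0.96 to 0.09, adjusted p = 0.336), BCL2L1 0.60 (-0.07 to 1.26, adjusted p = 0.289), MDM2 0.65 (-0.09 to 1.39, adjusted p = 0.304), MYC -0.12 (-0.63 to 0.39, adjusted p = 0.825) and XIAP -0.25 (-0.92 to 0.42, adjusted p = 0.708). Doses were 40 µM and 5 µM, so this compares these treatments and not the compounds at equal dose.

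**Figure D4:**
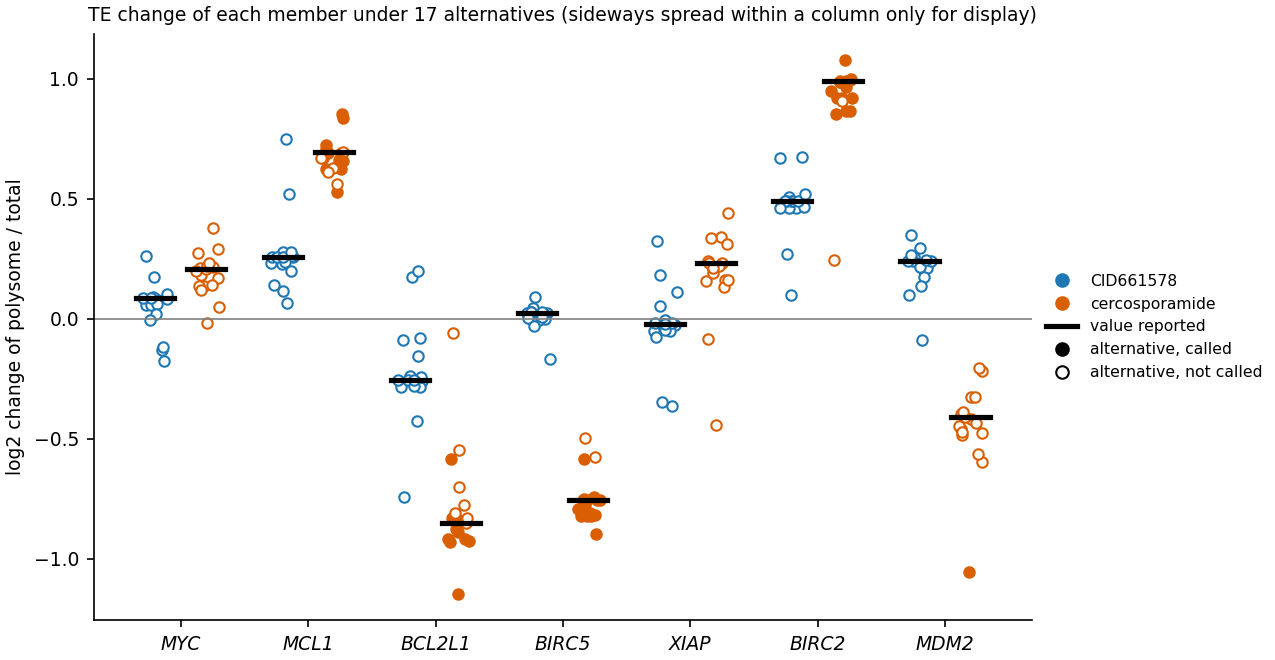
The log2 TE change of each mRNA under 17 alternative ways to process the data, with filled points for those that passed the call and a bar for the reported value. With CID661578 no alternative called a member, and with cercosporamide MCL1, BCL2L1, BIRC5 and BIRC2 each lost the call under some alternatives without changing direction.

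In total RNA alone no member was called with either compound at an adjusted p below 0.15, the limit used within a fraction. The shares of all genes called lower and higher were 0.166% and 0.307% with CID661578 and 0.0332% and 0.0498% with cercosporamide. For cercosporamide they were 1.06% and 2.22% by DESeq2 and 0.191% and 1.02% without replicate 2. Of all 12058 genes, 868 with CID661578 and 1348 with cercosporamide had an unadjusted p below 0.05, in either direction. At that limit 2 members were higher with CID661578 and 1 with cercosporamide. These were MCL1 (0.73, SE 0.238, adjusted p = 0.432, and 0.76 with an adjusted p of 0.141 by DESeq2) and MYC (0.53, SE 0.207, adjusted p = 0.614) with CID661578, and BCL2L1 (0.62, SE 0.257, adjusted p = 0.375) with cercosporamide.

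In polysome-associated RNA MCL1 and BIRC2 rose with both compounds. With CID661578 the polysome-associated RNA of MCL1 stood at 85.3, 69.1, 96.2 and 84.9 CPM, beside 30.5 to 74.5 CPM with DMSO, and rose by 1.00 (SE 0.189, adjusted p = 0.00429). BIRC2 stood at 155, 138, 159 and 127 CPM, beside 79.4 to 88.5 CPM with DMSO, and rose by 0.80 (SE 0.183, adjusted p = 0.0173). These were 2 of 7 members called higher beside 6.34% of all genes, and 0 were called lower beside 3.93%. With cercosporamide MCL1 rose by 0.86 (SE 0.190, adjusted p = 0.00317) and BIRC2 by 0.75 (SE 0.186, adjusted p = 0.00760), 2 of 7 beside 17.1% of all genes. BIRC5 fell by a log2 change of -0.44 (SE 0.185, adjusted p = 0.0997), 1 of 7 beside 16.0%, and its call was lost without replicate 1 (-0.46, adjusted p = 0.162) and without replicate 2 (-0.27, adjusted p = 0.411).

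MYC on polysomes stood at 0.60 with CID661578 (SE 0.245, adjusted p = 0.185) and at 0.47 with cercosporamide (SE 0.249, adjusted p = 0.194) and was not called. It was called higher with cercosporamide without its replicate 4 plate (0.69, adjusted p = 0.0685), without replicate 3 (0.70, adjusted p = 0.117) and without replicate 4 (0.70, adjusted p = 0.0659), and with CID661578 without the cercosporamide replicate 4 plate (0.64, adjusted p = 0.109). The fit without that plate was chosen after its depth had been seen. The polysome-associated RNA of BCL2L1 differed from DMSO by 0.12 with CID661578 (adjusted p = 0.794) and by -0.15 with cercosporamide (adjusted p = 0.629), and the second value was 0.04 without the plate of cercosporamide replicate 4 and 0.06 without replicate 4. XIAP and MDM2 were not called in polysome-associated RNA with either compound, with log2 changes from -0.41 to 0.33.

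Genes that act with the members give their surroundings, as lists of known partners. Of the other BCL2 guardians, 2 of 4 were tested and 0 were called for TE with either compound, although BCL2A1 was called lower with cercosporamide once the GC trend described below was removed (-0.78, adjusted p = 0.0366). BCL2 itself was at no more than 3 reads in any library. BCL2A1, a further guardian, rose in polysome-associated RNA with both compounds, by 1.08 with CID661578 (SE 0.214, adjusted p = 0.00632) and by 0.83 with cercosporamide (SE 0.217, adjusted p = 0.0108). Its total RNA changed by a like amount, 0.91 (adjusted p = 0.263) and 1.05 (adjusted p = 0.158), though neither was called.

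On the proapoptotic side of the family, 4 of 7 tested genes fell in TE with cercosporamide. Of 11 listed genes 7 were tested, 4 were called lower for TE with cercosporamide, beside 12.6% of all genes, 0 were called higher, and 0 were called with CID661578. The 4 were the pore formers BAK1 (-1.0, SE 0.376, adjusted p = 0.0690) and BAX (-1.0, SE 0.394, adjusted p = 0.0829), and the activators and sensitisers BAD (-0.96, SE 0.304, adjusted p = 0.0328) and BID (-0.88, SE 0.231, adjusted p = 0.0112). BID was also the 1 gene of the list with a called difference between the compounds (0.81, SE 0.231, adjusted p = 0.0381). The pore former BOK (-0.69, adjusted p = 0.238) and the sensitiser PMAIP1 (0.47, adjusted p = 0.332) were not called. In polysome-associated RNA alone BAX was called lower (-0.62, adjusted p = 0.144) and BAK1, BID and BAD were not (-0.48 to -0.30, adjusted p = 0.156 to 0.341). The list had a median TE change of -0.88 with cercosporamide, beside -0.0005 for all genes. With the GC trend removed, 3 of the 4 kept the call, BID (-0.85), BAK1 (-0.72) and BAD (-0.57), and BAX (60.8% transcript GC) did not. BCL2L11, which encodes the MCL-1 ligand BIM, was read at 54 counts or fewer and was not called (0.21 with CID661578 and -0.35 with cercosporamide).

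Of the other inhibitors of apoptosis and their antagonists 4 of 7 were tested. BIRC3, which encodes cIAP2, the closest relative of cIAP1, rose in TE with cercosporamide by 0.80 (SE 0.266, adjusted p = 0.0395). Its polysome-associated RNA rose with CID661578 by 1.75 (SE 0.261, adjusted p = 0.000377) and with cercosporamide by 1.2 (SE 0.265, adjusted p = 0.00331). Its total RNA stood at 1.01 (adjusted p = 0.260) and 0.40 (adjusted p = 0.613), and neither was called. DIABLO, whose product SMAC releases caspases from XIAP, was not called with either compound (0.33 and -0.36), although the difference between them was (0.69, SE 0.248, adjusted p = 0.0967). Of the caspases, the initiator CASP8 rose in TE with cercosporamide by 0.89 (SE 0.330, adjusted p = 0.0664). BIRC3 (35.8% transcript GC) and CASP8 (41.9%) were no longer called with the GC trend removed.

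Of the partners of MYC and the factors of its turnover 10 of 15 were tested. MLX, a member of the wider MAX network, fell in TE with cercosporamide (-0.71, SE 0.244, adjusted p = 0.0469) and was the only one called, while SKP2, a ligase subunit of MYC turnover, was also called lower with the GC trend removed (-0.79, adjusted p = 0.106). MAX, the obligate partner of MYC, was not called (0.63 with CID661578 and 0.08 with cercosporamide). Of the genes around MDM2 9 of 11 were tested and 0 were called for TE with either compound. MDM4, the partner of MDM2, had -0.15 with CID661578 and -0.99 with cercosporamide (SE 0.522, adjusted p = 0.210). With the GC trend removed 2 of the 9 were called lower with cercosporamide, MDM4 (-1.40, adjusted p = 0.0642) and ZMAT3 (-1.29, adjusted p = 0.0283). Of all genes 12.6% were called lower in the main fit, and the share stayed of like size with the trend removed. The 2 of 9 is therefore not a result about the list.

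Other mRNAs often described as eIF4E-sensitive were also called in both directions. Of 13 listed 10 were tested, and with cercosporamide 2 were called lower and 2 higher, beside 12.6% and 15.8% of all genes, so neither count is a result about the list. The cell cycle gene CCND3 (-0.64, SE 0.299, adjusted p = 0.146) and the polyamine enzyme ODC1 (-0.65, SE 0.236, adjusted p = 0.0618) fell, and the hypoxia factor HIF1A (1.97, SE 0.355, adjusted p = 0.000750) and the DNA repair gene NBN (1.46, SE 0.305, adjusted p = 0.00220) rose. HIF1A (1.33), NBN (0.70) and ODC1 (-0.55) kept their calls with the GC trend removed, and CCND3 did not. With CID661578 0 were called, and the median of the 10 was -0.11 with CID661578 and -0.08 with cercosporamide. Of 6 mRNAs often used as controls, 0 were called with CID661578 and 1, TBP, was called lower with cercosporamide (-0.82, SE 0.327, adjusted p = 0.0901).

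Across the 12 plates the ratios of the members to each other had no single pattern. Pearson's r of the log2 ratios was highest between MCL1 and BIRC2 (0.678) and between MYC and BCL2L1 (0.668), and lowest between BIRC5 and BIRC2 (-0.716) and between BCL2L1 and BIRC2 (-0.679). The plates share treatments, replicate numbers and the shallow library, so these values are descriptions. Among 7903 genes that averaged 3 or more on the log2 CPM scale, the gene whose ratio ran most like that of BIRC5 was DYNLRB1 (r = 0.940), followed by PPIF (r = 0.931). OARD1 (r = 0.966) and ACAT1 (r = 0.963) ran most like BIRC2, SHC1 (r = 0.977) and TNFRSF1A (r = 0.947) most like BCL2L1, and MORF4L1 (r = 0.975) and its near copy MORF4 (r = 0.965), which can share reads, most like MCL1. MYC ran most like KRT8P10 (r = 0.908) and SMARCAL1 (r = 0.907), XIAP like KNL1 (r = 0.871) and AKAP9 (r = 0.868), and MDM2 like FAM104B (r = 0.860) and C1D (r = 0.853).

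TE changes moved with the GC content of transcripts over all genes, and the members lie across that range. Over 11571 genes with a transcript sequence, cut into 5 groups of like size by GC content, the median TE change with cercosporamide was 0.67 in group 1, with the lowest GC content, and -0.36 in group 5, with the highest, and with CID661578 it was 0.36 and -0.38. BIRC2 (37.4% GC), XIAP (38.9%) and MDM2 (39.5%) lie in group 1. Of these BIRC2 rose with cercosporamide, whereas XIAP and MDM2 stood below the median of that group, and once the GC trend was removed MDM2 was called lower (-1.06, adjusted p = 0.0337) and XIAP stood at -0.44 (adjusted p = 0.404). MCL1 (45.1%) and MYC (48.8%) lie in group 3, where the median was -0.07, and BIRC5 (51.2%) and BCL2L1 (56.6%) in group 4, where it was -0.27. MCL1, BIRC5 and BCL2L1 kept their calls with the GC trend removed. The study reported low 5′ UTR GC content for mRNAs with raised TE and high content for those with lowered TE. In 5 groups by 5′ UTR GC content, the median with cercosporamide was 0.30 in the lowest and -0.24 in the highest. BIRC2 and BCL2L1 lie in group 1 of these, MCL1 in group 2, MYC, XIAP and MDM2 in group 3 and BIRC5 in group 4. Whether GC content of the transcript, its 5′ UTR or the preparation of the libraries lies behind these trends was not tested.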

How the data were processed

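Total cytosolic and polysome-associated RNA of 12 PANC-1 plates was sequenced as Smart-seq2 libraries. The authors removed rRNA reads with BBDuk, aligned to hg38 with HISAT2 and counted RefSeq genes with default featureCounts, which ignores strand and leaves out reads overlapping several genes. The deposited values are these raw counts. Read processing was quality checked with FastQC 0.11.8, per the submitters' notes. The smallest library (1592459 reads) limits precision.

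Libraries were grouped by their labels. The block of replicate number follows the study's methods, which name the replicate as batch. In a check, deviations of same-numbered libraries from their group means correlated at r above 0.1 in 13 of 16 comparisons (-0.019 to 0.584). Replicates differed beyond sampling noise (chi-square per degree of freedom of at least 14.9).

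Genes were kept if every library held at least 1 read. Counts were normalised with TMM and tested with edgeR 4.0.16 in R 4.3.3 by the quasi-likelihood test, with terms for plate, replicate within fraction, and TE change. TE calls needed an adjusted p below 0.15 and 1.2-fold, the study's thresholds. Fractions were also fitted separately. Plate ratios used log2 CPM with a prior count of 2. Alternatives used DESeq2 1.42.0, limma 3.58.1, and other scalings, filters and models. The model was also run on simulated counts with added TE changes but no plate, replicate or DMSO fraction effects. That run cannot show how the model handles such effects. GENCODE release 44 gave transcripts and 5′ UTRs and matched 39020 of 54583 symbols by name.

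The 7 members were set by name, and genes of the lists by role. Genes named from lists were those called for TE, at most 4 per list, with MAX, MDM4, DIABLO and BCL2L11. Some genes of the lists are not reported here. BCL2, BCL2A1, BOK, PMAIP1, SKP2, ZMAT3 and the polysome and total RNA values of list genes were added once their values were known. The 2 genes most like each member were named by Pearson's r. Members, lists and tests were chosen with earlier results of these data known.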

Additional observations from a re-analysis of the deposited data

Results flagged for a closer look

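Within groups of 4 plates, 1 sample stood apart from the other 3 by Dixon's test in 5 of 63 groups of member levels or ratios, where chance gives about 5% of groups. With cercosporamide, replicate 3 stood high in total RNA for MYC (143 CPM, others 67.6 to 76.7) and for MCL1 (45.9 CPM, others 23.2 to 25.2), and in polysome-associated RNA for XIAP (24.1 CPM, others 16.4 to 17.2). In polysome-associated RNA with cercosporamide, BCL2L1 stood low in replicate 4, the shallow library (23.8 CPM from 36 reads, others 65.2 to 73.0). The log2 ratio of polysome-associated to total XIAP was 0.084 in replicate 2 with CID661578, and 0.72 to 0.81 in the others.

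The TE change of BIRC5 differed between the treatments by 0.78 on the log2 scale, higher with CID661578, by the test of the difference itself (edgeR, adjusted p = 0.0532). At different doses, dose and compound cannot be told apart.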

How the results depend on the processing

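Values are log2 changes, and the cause of each change of call was not tested. The TE of 0 of the 7 members was called with CID661578 under each of 17 alternatives, and MCL1, BCL2L1, BIRC5 and BIRC2 kept their direction with cercosporamide in all 17. Depth limits XIAP and MDM2 most.

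At an adjusted p below 0.05, MCL1 (0.69) and BCL2L1 (-0.85) dropped out with cercosporamide, which left 1 higher and 1 lower, as did BCL2L1 (-0.44) and MYC (-0.37) with DMSO, which left 2 lower, and the BIRC5 difference (0.78), which left 0.

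Without the replicate block, keeping plate terms, BCL2L1 with cercosporamide (-0.81) was lost, which left 1 lower, and with DMSO BCL2L1 (-0.44) and MYC (-0.37) were lost, which left 2 lower. With neither the replicate block nor plate terms, MCL1 (0.67), BIRC2 (0.91) and BCL2L1 (-0.70) were lost, leaving 0 higher and 1 lower, the BIRC5 difference (0.78) was lost, leaving 0, and with DMSO XIAP (0.52), BCL2L1 (-0.53) and MYC (-0.14) were lost, leaving 1 higher and 2 lower. There MYC (-0.13) and XIAP (0.055) changed sign with CID661578. Within polysome-associated RNA, leaving out the block lost MCL1 (0.91) and BIRC2 (0.81) with CID661578, leaving 0 higher, and BIRC5 (-0.45) with cercosporamide, leaving 0 lower. The block changed no other call.

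With no filter MCL1 (0.63) was lost with cercosporamide, leaving 1 higher, as was BIRC5 on polysomes (-0.38), leaving 0 lower, with DMSO BCL2L1 (-0.32) and MYC (-0.25) were lost, leaving 2 lower, and MYC on polysomes was gained (0.63 with CID661578, 0.54 with cercosporamide). With filterByExpr BCL2L1 (-0.35) and MYC (-0.28) were lost with DMSO, leaving 2 lower. Scaling within each fraction lost BCL2L1 (-0.16), BIRC2 (-0.29) and MYC (-0.097) with DMSO, leaving 1 lower, and gained MDM2 (0.49). Scaling without mitochondrial genes lost BCL2L1 (-0.36) and MYC (-0.29), leaving 2 lower, and turned BIRC5 with CID661578 to -0.0031. DMSO and 1 compound in each fit gave -0.0016. DESeq2 called MCL1 in total RNA with CID661578 (0.76), 1 higher.

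The analysis of partial variance lost BCL2L1 (-0.057) and BIRC5 (-0.50) with cercosporamide, leaving 0 lower, and with CID661578 changed the sign of BCL2L1 (0.17), BIRC5 (-0.17), MYC (-0.17) and XIAP (0.33). The replicate block with the GC trend removed lost BIRC2 (0.25) with cercosporamide, leaving 1 higher, gained MDM2 (-1.06) and turned XIAP (-0.44), and turned MDM2 with CID661578 (-0.088). With DMSO it lost BIRC2 (-0.19) and MYC (-0.26), leaving 2 lower, and gained MDM2 (0.46). For the difference between the compounds it gained MDM2 (0.97), which made 2 higher, and turned XIAP (0.079).

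The percentage of all genes called for TE with cercosporamide (12.6% lower, 15.8% higher) became 6.46% and 9.77% at an adjusted p below 0.05, 5.35% and 4.56% with no filter, and 2.79% and 5.15% with neither the block nor plate terms. With the GC trend removed the higher share was 8.63%. For the difference between the compounds the higher and lower shares were 3.41% and 2.70%, 2.74% and 1.77%, and 0.116% and 0.0332% under the first 3 of these, and for DMSO they were 12.6% and 11.3% with no filter. For TE with CID661578 the lower share was 0.0746% to 0.316% and the higher 0% to 0.199% under the alternatives that kept all libraries.

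When each replicate was left out in turn, the TE change with cercosporamide ran from -1.14 to -0.55 for BCL2L1, from -0.90 to -0.57 for BIRC5, from 0.56 to 0.85 for MCL1, from -0.017 to 0.38 for MYC and from -0.083 to 0.44 for XIAP, with 1 to 2 members called higher and 0 to 2 lower. Without the plate of cercosporamide replicate 4 BCL2L1 was at -0.77, which left 1 lower. With CID661578 it ran from -0.74 to 0.20 for BCL2L1, from -0.029 to 0.089 for BIRC5, from -0.12 to 0.26 for MYC and from -0.35 to 0.18 for XIAP. The difference between the compounds ran from 0.54 to 0.99 for BIRC5 and from -0.73 to -0.35 for BIRC2, with 0 to 1 called in each direction. With DMSO the difference ran from -0.61 to -0.27 for BCL2L1, from -0.48 to -0.22 for MYC and from 0.39 to 0.93 for XIAP, with 1 to 2 called higher and 2 to 4 lower.

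In polysome-associated RNA with cercosporamide, leaving out each replicate gave -0.39 to 0.055 for BCL2L1, -0.56 to -0.27 for BIRC5 (0 to 1 called lower), 0.078 to 0.70 for MYC and -0.034 to 0.23 for XIAP, and without the plate of cercosporamide replicate 4 BCL2L1 was at 0.042 and MYC at 0.69. With CID661578 it gave -0.025 to 0.26 for BCL2L1, -0.13 to 0.18 for MDM2 and 0.30 to 0.88 for MYC, which was at 0.64 without that plate. In total RNA it gave -0.28 to 0.21 for MDM2 and -0.38 to 0.057 for XIAP with cercosporamide, and -0.32 to 0.020 for MDM2 with CID661578.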
